A study of Mus musculus with 26 samples.

Results

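The genes described here encode the nuclear subunits of the oxidative phosphorylation system, measured in mouse CD4+ T cells. They were chosen by symbol: every gene whose name begins as an NADH dehydrogenase subunit (Ndufa, Ndufb, Ndufc, Ndufs or Ndufv with a number), as Sdha to Sdhd, as Uqcr, as Cox4 to Cox8, or as Atp5, with names marked as pseudogenes left out. This gave 84 of 21669 named genes in the first count table and the same number of 21662 in the restimulation table. Of the 84, 35 belong to complex I, 4 to complex II, 8 to complex III, 20 to complex IV and 15 to ATP synthase. The other 2, Atp5s and Atp5sl, carry a subunit-like name but are not subunits; Atp5sl encodes a factor needed to assemble complex I.

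Oxidative phosphorylation takes place in the inner mitochondrial membrane. Complexes I and II pass electrons from NADH and succinate to ubiquinone, complex III passes them on to cytochrome c, complex IV hands them to oxygen, and ATP synthase uses the proton gradient that complexes I, III and IV build to make ATP. Naive T cells are quiescent and enlarge their mitochondria when activated, and regulatory T (Treg) cells are known for relying on oxidative metabolism. The subunits encoded by mitochondrial DNA are not in the count tables, so all values concern the nuclear part of the system.

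The study asked how TET enzymes, which oxidise 5-methylcytosine, and vitamin C, a cofactor that raises their activity, bear on Treg cells, in 26 RNA-seq libraries of sorted or cultured cells of C57BL/6 mice, taken from their lymph nodes and spleen. Tet2/3-deficient Treg cells were CD4+eGFP+ cells sorted ex vivo at 3 weeks from Tet2fl/fl Tet3fl/fl Foxp3-eGFP mice carrying CD4-Cre, which deletes in all T cells that passed the CD4-expressing thymic stage and not in Treg cells alone (n = 4). Control Treg cells came from mice of that age with the same floxed alleles and reporter but no Cre (n = 4). The cultures and the naive cells came from Foxp3-eGFP mice of 5 to 6 weeks, with 2 libraries per group. Naive CD4+ cells were sorted as eGFP-negative, CD25-negative, CD62L-high and CD44-low. Induced Treg (iTreg) cultures received TGFb with retinoic acid (RA) and vitamin C (VitC), with VitC, with RA, or alone, and Th0 cultures were activated without TGFb. In a separate table, from Foxp3-eGFP mice of 12 to 14 weeks, restimulated Foxp3-negative cells were sorted 6 days after iTreg cells made with TGFb had been stimulated again through CD3 and CD28 (n = 3), beside Foxp3-positive iTreg cells of day 6 (n = 3). The eGFP marks cells that express Foxp3, the transcription factor of Treg cells. The labels do not say that replicates came from separate animals or cultures, so p-values measure the spread between these libraries. In bulk RNA, fewer cells of a type and less RNA per cell cannot be told apart.

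Libraries held 9643151 to 17665855 counts over named genes. The Foxp3 level was 540 to 973 CPM (counts-per-million of a library) in the 8 iTreg libraries of the first table and 15.5 and 16.4 CPM in the Th0 libraries. The Tet3 level was 105.6 ± 9.5 CPM in Tet2/3-deficient Treg cells and 147.8 ± 22 CPM in control Treg cells (SD, n = 4 each; log2 fold change -0.52 ± 0.10 SE, edgeR, adjusted p = 0.00256), while Tet2 was 14.3 ± 2.2 CPM in Tet2/3-deficient and 13.7 ± 2.6 CPM in control cells (0.02 ± 0.15, edgeR, adjusted p = 0.93). No counts of the floxed exons alone were at hand, so whole-gene counts check the deletion only in part. Many of the 84 genes are short and have near-identical processed pseudogenes in the genome. Whether multiply mapped reads or strand were used in counting is not given in the sources used here, and levels are uncertain to that degree.

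A promoter window of RefSeq (build GRCm38.p6, 250 bases before to 50 after the annotated start) was found for 69 of the 84 genes. The 15 without an entry include Atp5a1, Cox4i1, Cox4i2, Cox6a2, Cox6c, Cox8c, Ndufa2, Ndufa4l2, Ndufb9, Ndufs1, Sdhc, Uqcrb, Uqcrc2 and Uqcrq. Each window was searched on both strands for the core letters bound by 4 factors known for mitochondrial genes. ETS factors (CCGGAAG) had a match in 15 of 69 windows (21.7%), against 9.12% of all 27025 windows of the same length. The NRF1 motif (GCGCATG) was in 13 (18.8%), against 4.04% of all windows. The YY1 motif (AAGATGG) was in 11 (15.9%), against 6.48%, and in none of these 11 did it lie before the start. The ERR motif (AAGGTCA) was in 8 (11.6%), against 4.66%. In all, 36 of the 69 windows held at least 1 of the 4 motifs. A match is a description of letters and not a measured binding site.

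The 6 windows printed here belong to genes on which the largest changes turned, each written 5′ to 3′ on its gene's strand. Ndufa4, Cox7a1 and Ndufv3 fell most in restimulated cells among the genes with a window, and none of the 4 motifs was found in them. Ndufa12, Uqcr11 and Ndufc1 had the 3 largest rises in Th0 against naive cells, and none of the 4 motifs was found in Ndufa12. Capitals mark motif letters: CCGGAAG and CATGCGC, the NRF1 letters read on the other strand, in Uqcr11, and AAGATGG in Ndufc1.
Ndufa4 promoter, chr6:11907401-11907700, minus strand: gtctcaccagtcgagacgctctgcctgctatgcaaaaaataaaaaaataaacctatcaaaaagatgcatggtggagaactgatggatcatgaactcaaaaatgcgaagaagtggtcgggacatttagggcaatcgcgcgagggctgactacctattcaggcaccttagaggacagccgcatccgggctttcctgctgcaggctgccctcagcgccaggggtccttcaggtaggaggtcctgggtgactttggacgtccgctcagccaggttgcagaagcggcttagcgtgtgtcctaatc
Cox7a1 promoter, chr7:30183921-30184220, plus strand: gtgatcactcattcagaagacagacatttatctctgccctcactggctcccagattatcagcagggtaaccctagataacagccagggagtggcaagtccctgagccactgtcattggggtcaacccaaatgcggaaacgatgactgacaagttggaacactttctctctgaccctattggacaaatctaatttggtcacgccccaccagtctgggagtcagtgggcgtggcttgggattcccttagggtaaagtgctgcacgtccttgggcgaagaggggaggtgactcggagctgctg
Ndufv3 promoter, chr17:31519865-31520164, plus strand: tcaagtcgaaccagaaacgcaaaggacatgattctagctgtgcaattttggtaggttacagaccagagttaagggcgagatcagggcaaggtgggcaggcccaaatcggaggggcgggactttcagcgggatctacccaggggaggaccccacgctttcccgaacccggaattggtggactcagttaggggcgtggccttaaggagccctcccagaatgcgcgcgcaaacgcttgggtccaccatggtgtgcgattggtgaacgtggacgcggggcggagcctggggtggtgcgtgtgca
Ndufa12 promoter, chr10:94198785-94199084, plus strand: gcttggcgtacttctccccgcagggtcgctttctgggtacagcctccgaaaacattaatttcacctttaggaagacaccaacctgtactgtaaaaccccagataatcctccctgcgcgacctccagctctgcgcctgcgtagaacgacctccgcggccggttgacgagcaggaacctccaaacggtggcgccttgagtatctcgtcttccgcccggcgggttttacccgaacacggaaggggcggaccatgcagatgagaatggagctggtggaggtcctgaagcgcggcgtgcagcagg
Uqcr11 promoter, chr10:80406772-80407071, minus strand: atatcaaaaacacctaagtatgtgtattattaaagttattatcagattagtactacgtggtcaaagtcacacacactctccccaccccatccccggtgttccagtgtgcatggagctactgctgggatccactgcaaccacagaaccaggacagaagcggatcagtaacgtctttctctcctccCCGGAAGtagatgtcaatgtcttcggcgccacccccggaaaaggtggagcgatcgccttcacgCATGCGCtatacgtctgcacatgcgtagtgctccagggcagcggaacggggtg
Ndufc1 promoter, chr3:51408906-51409205, minus strand: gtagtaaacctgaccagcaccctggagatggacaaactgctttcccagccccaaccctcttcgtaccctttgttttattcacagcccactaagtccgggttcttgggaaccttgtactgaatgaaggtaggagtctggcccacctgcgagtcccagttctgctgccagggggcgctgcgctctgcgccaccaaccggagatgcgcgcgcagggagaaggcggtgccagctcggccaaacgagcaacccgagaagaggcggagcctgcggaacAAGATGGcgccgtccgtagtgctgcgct

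Most of the 84 genes were strongly expressed in every group. In FPKM, which divides the count by library total and exon length, Atp5b, the catalytic beta subunit of ATP synthase, had the highest mean of the 84 in Th0 cells (799 ± 9.6, SD, n = 2) and in control Treg cells (511 ± 35, n = 4). Cox4i1, a regulatory subunit of complex IV, came next in both groups, at 526 FPKM in Th0 and 476 FPKM in control Treg cells. In naive cells Cox7a2l, which encodes a protein that joins complexes III and IV into supercomplexes and is present in a shortened form in C57BL/6 mice, was highest at 531 ± 17 FPKM (n = 2), ahead of Atp5b at 475 FPKM. The tissue-restricted sisters stood at the other end. Cox7b2, Cox8b and Cox8c had no count in any of the 26 libraries, and Cox6a2 and Ndufa4l2 were under the count filter in every comparison. Cox4i2 and Cox7a1 passed the filter in the restimulation table alone, and Cox6b2 passed it in the first table alone.

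The summed level of the 84 genes differed between groups. It was 12924 ± 115 CPM in Tet2/3-deficient and 11264 ± 611 CPM in control Treg cells (SD, n = 4 each). It was 11253 ± 659 CPM in TGFb+RA+VitC, 10799 ± 517 in TGFb+VitC, 11980 ± 1483 in TGFb+RA and 12249 ± 574 in TGFb iTreg cells, 13949 ± 662 in Th0 and 9099 ± 388 in naive cells (n = 2 each). In the separate table it was 10517 ± 193 CPM in restimulated and 13246 ± 503 CPM in day 6 cells (n = 3 each). The Tet2/3-deficient libraries, at 12793 to 13034 CPM, did not overlap the control libraries, at 10576 to 12029 CPM. The 2 TGFb+RA libraries lay apart, at 10932 and 13029 CPM.

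**Figure D1:**
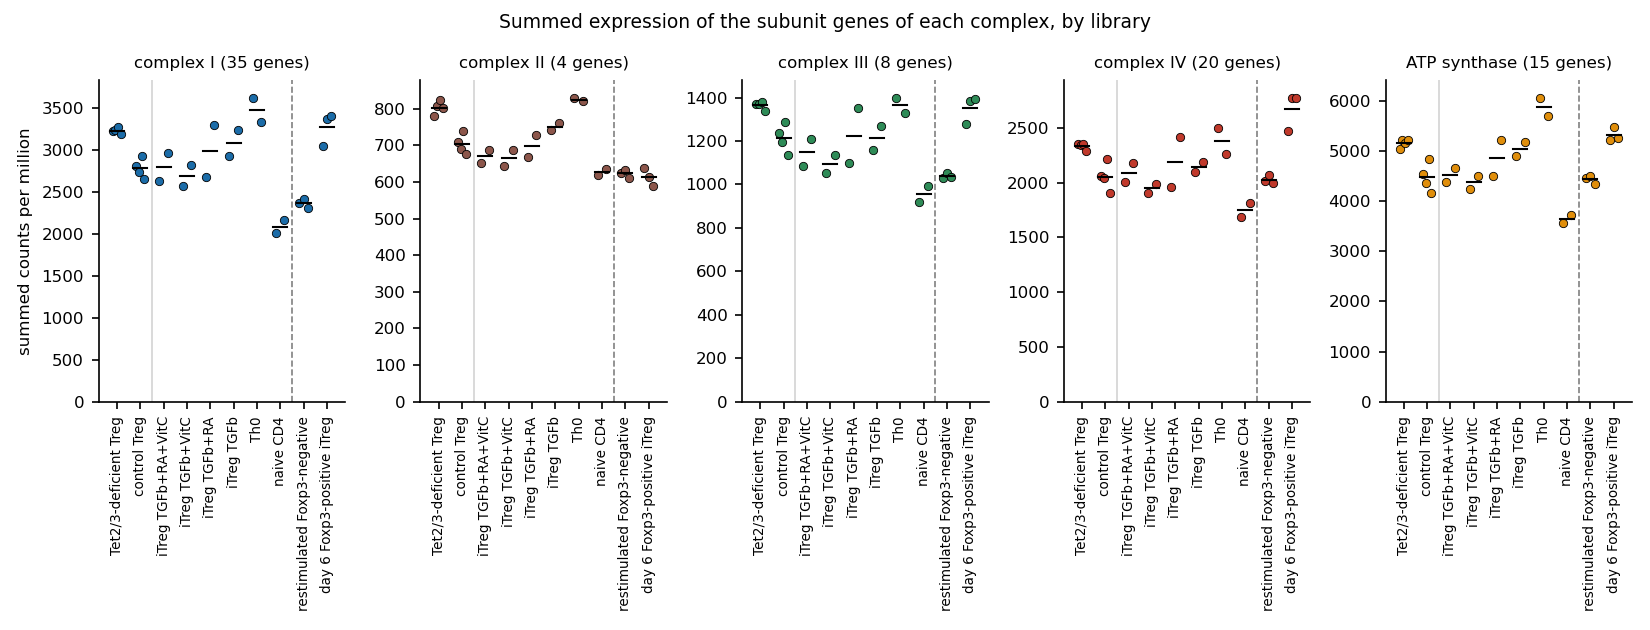
Summed CPM of the subunit genes of each complex (y axis, from 0) in every library, 1 point a library, with a line at the group mean; groups right of the dashed line come from the separate restimulation table. For all 5 complexes the Tet2/3-deficient points lie above the control points, and the naive points lie lowest among the first table's groups.

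One property of these genes bears on every comparison. Their exon length had a median of 695.5 bases (range 292 to 4224), against 3318 bases for the genes tested in the cultures, and 57 of the 84 were under 1000 bases. In several comparisons the change of all genes followed exon length, so each comparison below is given with the values of the other tested genes under 1000 bases, the 84 left out, and with an alternative fit in which the smooth trend of all genes on exon length was taken out. How far the length trend is technical was not tested.

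**Figure D2:**
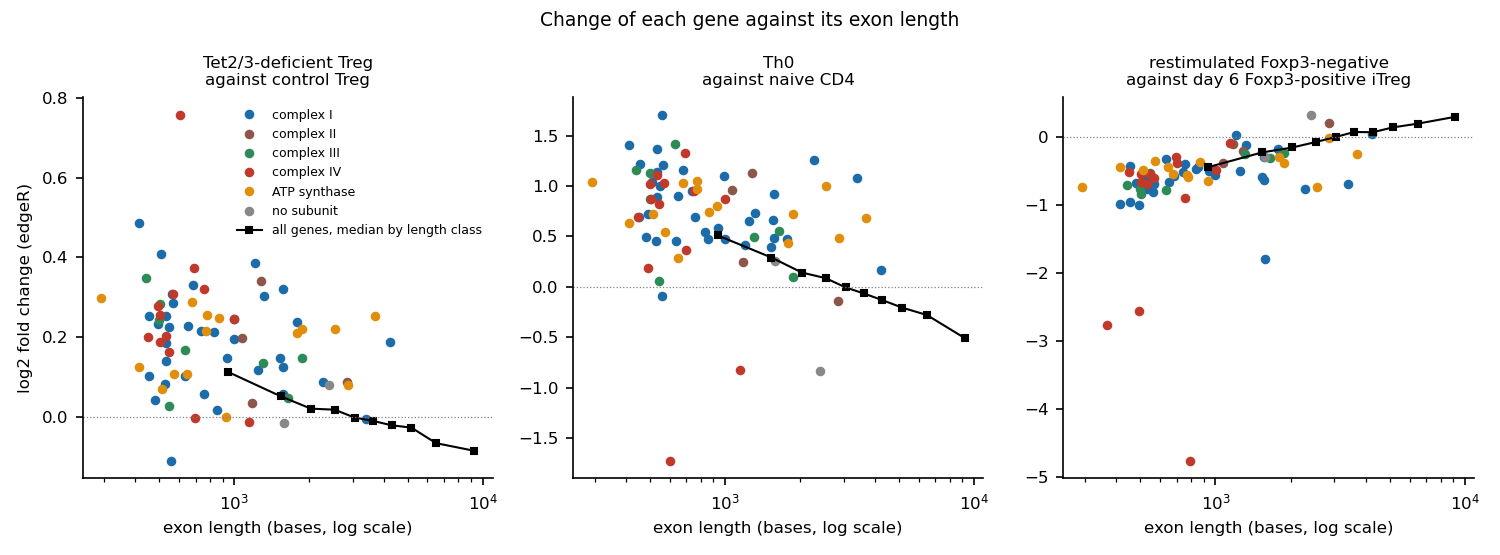
Log2 fold change of each subunit gene (y axis) against its exon length in bases (x axis, log scale) in 3 comparisons, coloured by complex; black squares are the median of all tested genes in 10 classes of length. The all-gene median runs downward with length for Tet2/3-deficient against control Treg (0.11 in the shortest class, -0.08 in the longest) and for Th0 against naive cells (0.51 and -0.51), and upward after restimulation (-0.44 and 0.30).

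Tet2/3-deficient Treg cells expressed more of many subunit genes than control Treg cells, by small margins. Of 77 genes that passed the count filter, 39 were higher and 0 lower (edgeR quasi-likelihood test, Benjamini-Hochberg adjusted p under 0.05; 48 with unadjusted p under 0.05, 40 called by DESeq2), while 16.8% of all 11657 genes tested were higher and 15.9% lower. The median log2 fold change of the 77 genes was 0.20, against 0.00 for all genes. The higher genes were spread over the complexes: 17 of 35 in complex I, 1 of 4 in complex II, 4 of 8 in complex III, 8 of 13 tested in complex IV and 9 of 15 in ATP synthase. Among the 7 core subunits of complex I, which carry the flavin and iron-sulphur clusters or the quinone site, 4 were higher.

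Ndufc1, a small membrane subunit of complex I, had 33.5, 37.4, 37.4 and 35.6 CPM in Tet2/3-deficient Treg libraries, against 22.7, 24.8, 27.4 and 25.2 CPM in control Treg libraries, a rise of 0.49 ± 0.08 on the log2 scale (SE, edgeR, adjusted p = 0.0012). The groups did not overlap. Cox5a, a matrix-side subunit of complex IV, had 149, 152, 153 and 142 CPM in Tet2/3-deficient and 113, 108, 119 and 107 CPM in control libraries, without overlap, and rose by 0.37 ± 0.06 (edgeR, adjusted p = 0.000776, the lowest of the 77 genes). Sdhd, a membrane anchor of complex II, had 169, 180, 186 and 165 CPM in Tet2/3-deficient and 152, 125, 142 and 119 CPM in control libraries, a rise of 0.34 ± 0.08. Ndufv2, an iron-sulphur subunit of the NADH-oxidising end of complex I, had 153, 147, 147 and 142 CPM in Tet2/3-deficient and 115, 109, 122 and 113 CPM in control libraries, a rise of 0.32 ± 0.06. In all 3 genes every Tet2/3-deficient library exceeded every control library.

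Uqcr10, a small complex III subunit, rose by 0.35 ± 0.09, Ndufa10 by 0.39 ± 0.08 and Ndufs5 by 0.41 ± 0.09, both of them accessory subunits of complex I. Atp5b rose by 0.22 ± 0.06 and Atp5g1, which encodes the membrane rotor subunit c, by 0.25 ± 0.07. Sdha, Sdhb, Cox4i1 and Atp5a1 did not pass the test. The largest fold change of the 77, 0.76 for the low-expressed Cox6b2 (1.72, 2.37, 2.49 and 2.75 CPM in Tet2/3-deficient and 1.72, 1.01, 2.02 and 0.69 CPM in control libraries), did not pass either. Taking each library's median over the 77 genes, log2 relative to the control mean, the Tet2/3-deficient libraries stood at 0.21, 0.25, 0.26 and 0.22 and the control libraries at 0.00, -0.02, 0.10 and -0.08. The 4 Tet2/3-deficient libraries lay close together, and the control library S3 lay nearest to them.

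**Figure D3:**
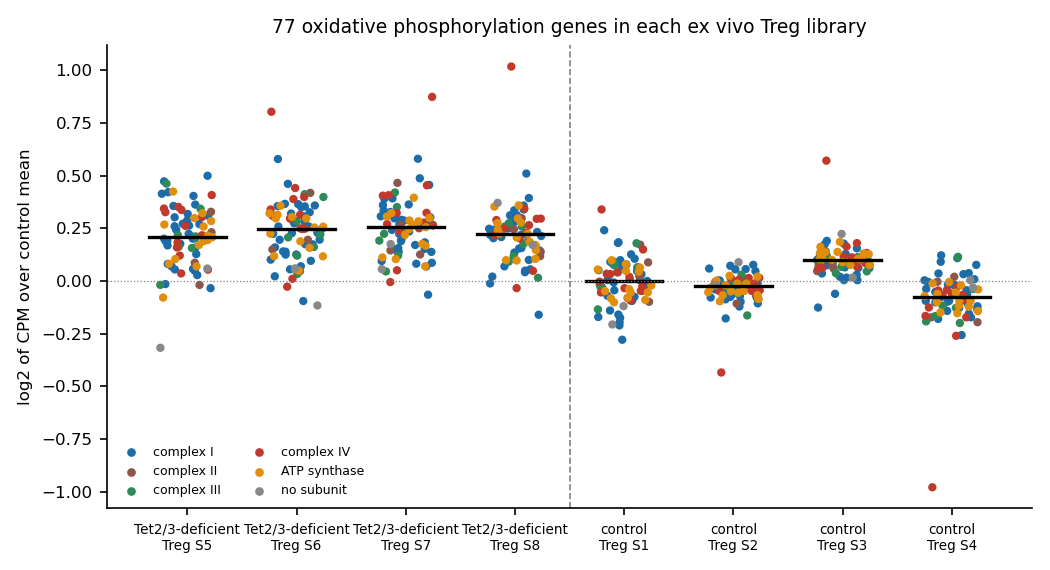
Log2 ratio of CPM to the mean of the 4 control Treg libraries (y axis) for the 77 tested genes in each ex vivo Treg library, 1 point a gene, coloured by complex, with a line at the library median. The medians run from 0.21 to 0.26 in the 4 Tet2/3-deficient libraries and from -0.08 to 0.10 in the 4 control libraries.

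Short genes in general moved the same way in this comparison. Of the 617 other tested genes under 1000 bases, 24.8% were higher and 6.00% lower, with a median of 0.12. Among the subunit genes, 27 of 50 under 1000 bases were higher (median 0.22) and 12 of 27 longer ones (median 0.15). With the length trend taken out, 17 were higher and 1, Ndufa6, lower, and the median was 0.08. In all 14 alternatives, 14 genes stayed higher: Ndufa9, Ndufa10, Ndufc1, Ndufc2, Ndufs5, Ndufv2, Sdhd, Cox5a, Cox7a2, Cox7b, Atp5c1, Atp5f1, Atp5g3 and Atp5j2. Leaving out Tet2/3-deficient library S6 left 24 calls and leaving out control library S2 left 25.

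Marker lists also differed between these sorts. The summed CPM of 6 T cell markers was 3280 to 3508 in Tet2/3-deficient and 3560 to 4118 in control libraries, and that of 7 Treg markers 3199 to 3513 in Tet2/3-deficient and 3819 to 4137 in control libraries, without overlap in either list. By single marker, only Cd4 in the T cell list and Nrp1 and Ikzf2 in the Treg list did not overlap. Cd4 had 561 to 646 CPM in Tet2/3-deficient and 792 to 939 CPM in control libraries. Nrp1 had 183 to 226 CPM in Tet2/3-deficient and 387 to 481 CPM in control libraries. Ikzf2 had 286 to 332 CPM in Tet2/3-deficient and 393 to 496 CPM in control libraries. Foxp3 itself was lower in Tet2/3-deficient cells (-0.26 ± 0.07, edgeR, adjusted p = 0.0113). The sum of 4 NK cell markers was 33.4 to 47.9 in Tet2/3-deficient and 7.42 to 9.43 in control libraries, but its defining marker Ncr1 had at most 0.125 CPM in Tet2/3-deficient and 0.261 CPM in control libraries. Most of that sum in Tet2/3-deficient libraries was Eomes, a transcription factor also found in T cells, at 24.7 to 35.7 CPM. Eomes had 3.52 to 5.35 CPM in control libraries. Klrb1c, also of the NK list, was higher in Tet2/3-deficient libraries too, without overlap. It had 8.288 to 12.11 CPM in Tet2/3-deficient and 3.71 to 5.603 CPM in control libraries. The sum of 2 CD8 T cell markers was 3.37 to 5.30 CPM in Tet2/3-deficient and 24.8 to 28.5 CPM in control libraries.

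For 9 myeloid markers the sum was 60.4 to 144 CPM in Tet2/3-deficient and 44.7 to 72.5 CPM in control libraries. For 5 erythroid markers it was 198 to 408 in Tet2/3-deficient and 294 to 713 in control libraries, and for 7 B cell markers 174 to 227 in Tet2/3-deficient and 138 to 279 in control libraries. These 3 sums overlapped between the groups, while their members Itgam and Slc4a1 did not. Itgam, of the myeloid list, had 29.0 to 54.7 CPM in Tet2/3-deficient and 6.45 to 13.4 CPM in control libraries. Slc4a1, of the erythroid list, had 2.02 to 4.68 CPM in Tet2/3-deficient and 6.09 to 8.93 CPM in control libraries. The sum of 6 activated T cell markers was 1714 to 2053 CPM in Tet2/3-deficient and 1697 to 1791 CPM in control libraries. In that list Tfrc and Cd44 were higher without overlap, and the other markers overlapped. Tfrc had 129 to 149 CPM in Tet2/3-deficient and 58.5 to 80.5 CPM in control libraries. Cd44 had 268 to 290 CPM in Tet2/3-deficient and 197 to 217 CPM in control libraries. The proliferation marker Mki67 had 82.8 to 132 CPM in Tet2/3-deficient and 25.5 to 84.4 CPM in control libraries. The sum of 6 naive T cell markers was 3258 to 3688 CPM in Tet2/3-deficient and 3689 to 3793 CPM in control libraries. In that list Ccr7 was higher without overlap, at 465 to 534 CPM in Tet2/3-deficient and 361 to 409 CPM in control libraries. S1pr1 (377 to 465 against 614 to 766 CPM in control) and Lef1 (143 to 170 against 197 to 227 CPM in control) were lower without overlap. The part of these markers in the subunit genes' difference was not tested.

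Several lists of genes that feed the chain held more higher than lower calls in Tet2/3-deficient cells, where 16.8% of all genes were higher. Of 20 genes of the tricarboxylic acid cycle and pyruvate entry, 12 were higher and 0 lower, among them Fh1, fumarate hydratase (0.49), and Idh3a, a subunit of NAD-dependent isocitrate dehydrogenase (0.42). Of 11 tested electron carriers and transporters, 8 were higher, with Slc25a4, an ADP/ATP carrier, at 0.61 and Vdac1, the outer membrane channel, at 0.50. All 5 subunit or subunit-linked genes under other names were higher, among them Cyc1, cytochrome c1 of complex III (0.30), and Atpif1, the ATP synthase inhibitor (0.58). Of the assembly factors, 4 of 14 for complex I, 2 of 10 for complexes II and III, 2 of 19 for complex IV and 0 of 3 for ATP synthase were higher and none was lower, together a share close to that over all genes. Of 18 tested regulators of mitochondrial gene expression, Myc was higher (0.50) and Esrra (-0.39) and Gabpb1 (-0.29) were lower.

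The widest rise in the first table was that of activated Th0 over naive cells. Activation and culture go together here and cannot be told apart. Mki67 was 998 and 1002 CPM in Th0 and 5.75 and 9.54 CPM in naive libraries, and its part was not tested. In Th0 against naive CD4+ cells, 67 of 77 genes were higher and 2 lower, while 35.7% of 11268 genes were higher and 36.4% lower, and the median log2 fold change was 0.72, against -0.01 for all genes. All 15 ATP synthase genes rose, as did 33 of 35 in complex I, 6 of 8 in complex III, 3 of 4 in complex II and 10 of 13 tested in complex IV. Ndufa12, an accessory subunit near the NADH-oxidising arm of complex I, had 101 and 93 CPM in Th0 and 29.1 and 29.0 CPM in naive libraries and rose most, by 1.71 ± 0.11 (edgeR, adjusted p = 2.85e-09). Uqcr11, a small complex III subunit, had 99.2 and 82.1 CPM in Th0 and 34.1 and 32.3 CPM in naive libraries, a rise of 1.42 ± 0.14. In both genes the groups did not overlap.

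Ndufc1 rose by 1.41 ± 0.15, Ndufb7 by 1.37 ± 0.11, Cox5a by 1.33 ± 0.11 and Ndufb8 by 1.26 ± 0.14. Atp5b, already the most abundant ATP synthase transcript, had 1514 and 1489 CPM in Th0 and 889 and 897 CPM in naive libraries (0.72 ± 0.07). The 2 genes that fell did so by similar amounts. Cox7a2l had 359 and 344 CPM in Th0 and 597 and 624 CPM in naive libraries (-0.83 ± 0.08, edgeR, adjusted p = 2.34e-07), and Atp5sl had 22.0 and 20.1 CPM in Th0 and 35.5 and 37.9 CPM in naive libraries (-0.83 ± 0.11). Ndufs1, Ndufa6, Sdha, Uqcrc2, Uqcrh, Ndufa4, Cox6b2 and Atp5s did not pass the test. Sdha, the catalytic flavoprotein of complex II, had 333 and 331 CPM in Th0 and 367 and 352 CPM in naive libraries, while its partners Sdhb and Sdhd rose by 0.96 and 1.13.

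The genes longer than 1000 bases had a median of 0.50 (21 of 27 higher and 2 lower), and those under 1000 bases a median of 0.88 (46 of 50 higher). The 605 other tested genes under 1000 bases had a median of 0.40, with 49.9% higher and 20% lower. With the length trend taken out, 53 were higher and 8 lower, with a median of 0.38. In all 12 alternatives 52 genes stayed higher, and Cox7a2l and Atp5sl stayed lower. Of 20 tricarboxylic acid cycle genes, 15 were higher and 2 lower, with Pcx, pyruvate carboxylase, at 4.58, and of 11 carriers and transporters 10 were higher, led by Vdac1 at 1.58. Complex II and III assembly factors went both ways, 1 higher (Uqcc2, 1.56) and 5 lower (Sdhaf1, -1.13) of 10.

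Ex vivo control Treg cells also differed from naive CD4+ cells. Of 77 genes 42 were higher and 4 lower, beside 28.7% and 26.2% of 11715 genes (54.9% in either direction), and the median was 0.29, against 0.01 for all genes. Ndufa5, an accessory subunit of the complex I arm, had 30.7, 32.3, 37.2 and 37.0 CPM in control Treg and 16.5 and 17.3 CPM in naive libraries, a rise of 0.88 ± 0.13 (edgeR, adjusted p = 0.000216). Ndufb7 rose by 0.77 ± 0.10, Ndufs8, a core iron-sulphur subunit of complex I, by 0.75 ± 0.10, and Cox6c by 0.69 ± 0.12. Cox7a2l (-0.31), Atp5sl (-0.53), Ndufa10 (-0.35) and Sdha (-0.26) fell. The 643 other tested genes under 1000 bases had a median of 0.21, with 37.0% higher and 17.3% lower. With the length trend taken out, 28 subunit genes were higher and 6 lower, and their median was 0.13. The groups differ in age (3 against 5 to 6 weeks), floxed alleles and sort as well as in cell type, and these cannot be told apart. In all 12 alternatives 18 genes stayed higher and Atp5sl stayed lower, and leaving out naive library 1 left 23 calls. With library totals alone in place of TMM factors, 59 were higher and 1 lower.

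**Figure D4:**
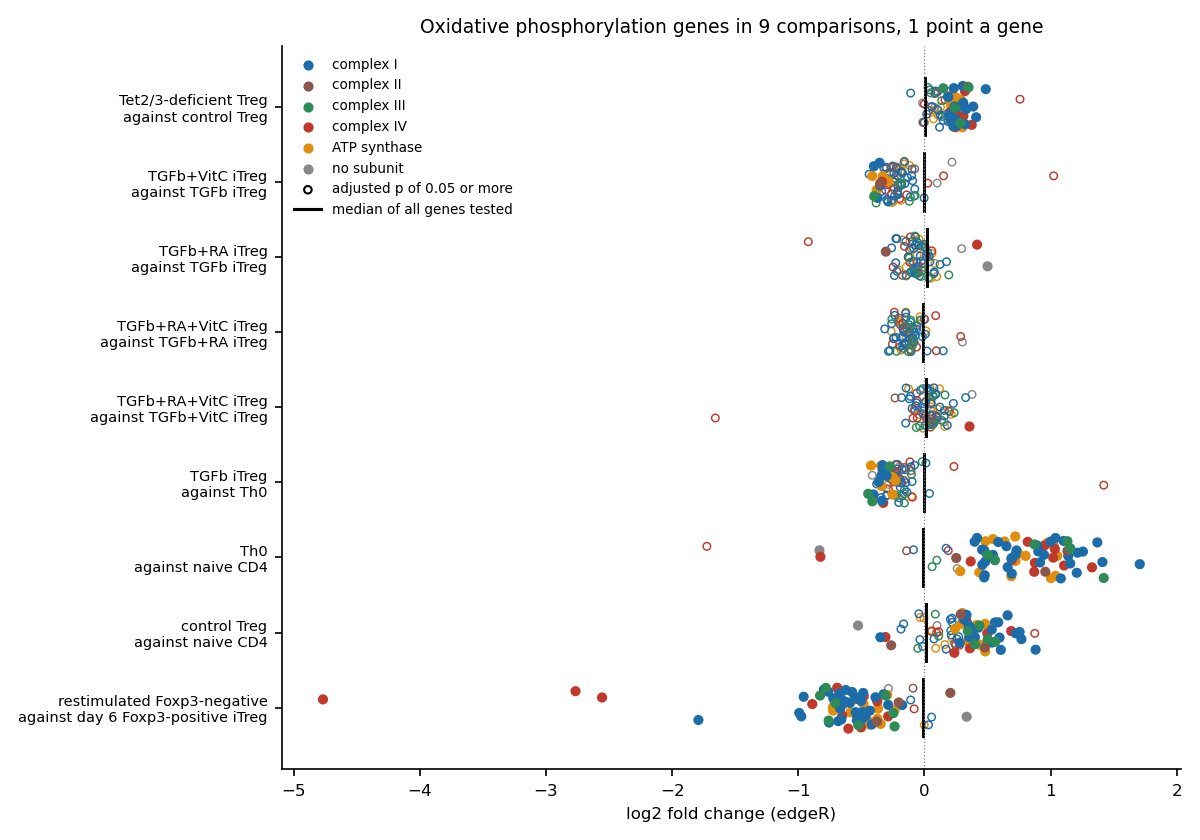
Log2 fold change (x axis) of each tested gene in 9 comparisons (rows), 1 point a gene, coloured by complex; filled points passed the test at an adjusted p under 0.05, open points did not, and black bars mark the median of all genes tested. The cloud lies right of the bar for Tet2/3-deficient Treg, Th0 and control Treg. It lies left of the bar for TGFb+VitC against TGFb, TGFb against Th0 and restimulation, and by less for TGFb+RA+VitC against TGFb+RA. The farthest points are Cox4i2, Cox7a1, Ndufa4 and Ndufv3 in the bottom row.

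In TGFb iTreg cells subunit levels were slightly lower than in Th0 cells, as were those of other short genes. In TGFb iTreg against Th0 cells 0 of 77 genes were higher and 19 lower, beside 14.5% and 11.6% of 11268 genes, and the median was -0.23. Without adjustment 37 had p under 0.05, and DESeq2 called 18. ATP synthase gave 8 of the 19 calls, complex I 7, complex III 3 and complex IV 1. Uqcr10 had 80.0 and 89.5 CPM in TGFb and 117 and 108 CPM in Th0 libraries, without overlap (-0.45 ± 0.12, edgeR, adjusted p = 0.0125). Atp5g1 had 104 and 109 CPM in TGFb and 150 and 128 CPM in Th0 libraries, also without overlap (-0.41 ± 0.10). Of the 605 other tested genes under 1000 bases, 28.1% were lower and 5.12% higher, with a median of -0.25, so the subunit genes lay near short genes at large. With the length trend taken out, 3 genes were higher and 2 lower, and the median was -0.03. Leaving out TGFb library 1 or Th0 library 1 left 0 calls, and leaving out TGFb library 2 left 6.

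Subunit levels were slightly lower with vitamin C and TGFb than with TGFb alone, as were those of other short genes. In TGFb+VitC against TGFb iTreg cells, 0 of 77 genes were higher and 11 lower, beside 8.87% and 8% of 11268 genes. The median was -0.22, and 72 of the 77 had a negative fold change. Without adjustment 34 had p under 0.05, and DESeq2 called 10. The 11 genes were Ndufa9, Ndufa10, Ndufs6, Ndufs7, Sdhd, Uqcr10, Cox6a1, Atp5b, Atp5g1, Atp5j and Atp5o, from all 5 complexes. Atp5g1 fell most, with 77.6 and 85.2 CPM in TGFb+VitC and 104 and 109 CPM in TGFb libraries (-0.41 ± 0.11, edgeR, adjusted p = 0.0161). Ndufa10 had 113 and 110 CPM in TGFb+VitC and 141 and 149 CPM in TGFb libraries (-0.40 ± 0.09, adjusted p = 0.00721). Atp5b had 1059 and 1122 CPM in TGFb+VitC and 1275 and 1338 CPM in TGFb libraries (-0.28 ± 0.07). None of the 3 genes overlapped between groups.

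The 605 other tested genes under 1000 bases had a median of -0.16 in this comparison, with 10.7% lower and 3.14% higher. With the length trend taken out 2 subunit genes were higher and 5 lower, and their median was -0.06. Leaving out TGFb library 1 left 1 call, TGFb library 2 left 0, TGFb+VitC library 1 left 1 and TGFb+VitC library 2 left 3. Of 20 tricarboxylic acid cycle genes 4 fell, with Idh2, mitochondrial isocitrate dehydrogenase, at -0.59. Of 11 carriers and transporters 4 fell: Cycs, cytochrome c (-0.33), Vdac1 (-0.32), Vdac2 (-0.27) and Vdac3 (-0.28).

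Retinoic acid changed few of the genes. In TGFb+RA against TGFb iTreg cells, 2 were higher and 1 lower, beside 7.21% and 9.31% of 11268 genes. Cox7a2l had 424 and 481 CPM in TGFb+RA and 324 and 349 CPM in TGFb libraries (0.42 ± 0.08, edgeR, adjusted p = 0.00231), and Atp5sl had 25 and 24.5 CPM in TGFb+RA and 17.3 and 17.5 CPM in TGFb libraries (0.50 ± 0.12, adjusted p = 0.00841). Neither gene overlapped between groups. Sdhb, the iron-sulphur subunit of complex II, had 129 and 149 CPM in TGFb+RA and 168 and 172 CPM in TGFb libraries (-0.31 ± 0.09, adjusted p = 0.038). The other tested genes under 1000 bases had a median of -0.04, and with the length trend taken out 3 subunit genes were higher and 2 lower. Leaving out TGFb+RA library 2 gave 17 calls, 15 of them lower; leaving out TGFb library 1 gave 0 and TGFb library 2 gave 1.

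With RA present, no gene passed the test for vitamin C. In TGFb+RA+VitC against TGFb+RA cells edgeR called 0 of 77 genes (6 with unadjusted p under 0.05, DESeq2 called 0), beside 7.55% of all genes (4.32% higher and 3.23% lower), and the lowest adjusted p was 0.107, for Atp5b. The median was -0.13, against -0.09 for the other genes under 1000 bases. Of the 77 genes 68 had a negative and 9 a positive fold change. It was positive in 29.4% of the other genes under 1000 bases and in 48.0% of all genes. With the length trend taken out 1 gene was higher. Without TGFb+RA library 1, which had the lower subunit sum of its group, 8 genes were lower. Against TGFb+VitC cells, TGFb+RA+VitC cells had 1 higher gene and 0 lower (5.82% and 9.3% of all genes; the other genes under 1000 bases had a median of 0.03), and with the length trend taken out 2 were higher and 1 lower. The 1 gene was Cox7a2l, with 474 and 500 CPM in TGFb+RA+VitC and 388 and 372 CPM in TGFb+VitC libraries (0.35 ± 0.08, edgeR, adjusted p = 0.00655), and leaving out TGFb+RA+VitC library 2 or TGFb+VitC library 2 left 0. A test of the difference between both vitamin C effects, the interaction of VitC and RA, called 0 subunit genes by edgeR (0 with unadjusted p under 0.05, DESeq2 0), beside 0.0177% of all genes. Cox7a2l passed in both RA comparisons, which share no library but share 1 estimate of the spread.

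Restimulated Foxp3-negative cells had the widest fall. Against day 6 Foxp3-positive iTreg cells, 69 of 78 genes were lower and 2 higher, beside 35.2% lower and 33.6% higher of 11226 genes, and the median was -0.53, against -0.01 for all genes. Lower were 32 of 35 genes in complex I, 2 of 4 in complex II, 8 of 8 in complex III, 13 of 14 tested in complex IV and 14 of 15 in ATP synthase. Sdha rose, with 290, 282 and 288 CPM in restimulated and 254, 232 and 221 CPM in day 6 libraries (0.20 ± 0.05, edgeR, adjusted p = 0.00387), and so did Atp5sl (0.33 ± 0.08). Foxp3 was 15.3 ± 2.2 CPM in restimulated and 325 ± 20 CPM in day 6 cells (SD, n = 3 each). Loss of Foxp3, the second stimulation and the longer culture go together here and cannot be told apart. Mki67 was 185 to 210 CPM in restimulated and 428 to 504 CPM in day 6 libraries, and its part was not tested.

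A few genes fell far more than the rest. Cox4i2, the sister of Cox4i1 known for induction by low oxygen and for expression in lung, had 0.177, 0.063 and 0.129 CPM in restimulated and 2.90, 3.20 and 3.61 CPM in day 6 libraries (-4.77 ± 0.37, edgeR, adjusted p = 2.91e-08) at only 2, 1 and 2 counts in the restimulated libraries. Cox7a1, the heart and muscle sister of Cox7a2, had 0.177, 0.189 and 0.258 CPM in restimulated and 0.967, 1.57 and 1.6 CPM in day 6 libraries (-2.77 ± 0.42, edgeR, adjusted p = 3.32e-05). These Cox7a1 values rest on only 2, 3 and 4 counts in restimulated and 12, 27 and 24 counts in day 6 libraries. Day 6 cells had the highest mean CPM of all groups in both genes, set across tables that were normalised separately. The common sisters moved less: Cox7a2 fell by 0.89 and Cox4i1 by 0.37.

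Ndufa4, once counted to complex I and now known as a subunit of complex IV, was the abundant gene that fell most. It had 17.0, 17.1 and 16.5 CPM in restimulated and 81.4, 98.0 and 102 CPM in day 6 libraries (-2.56 ± 0.09, adjusted p = 1.1e-11). Its lowest level in the other table was 82.8 CPM, in a naive library. Ndufv3, an accessory subunit at the NADH-oxidising tip of complex I, had 64.2, 65.8 and 64.7 CPM in restimulated and 192, 214 and 233 CPM in day 6 libraries (-1.79 ± 0.07, adjusted p = 1.81e-11). Ndufa1 (-0.99 ± 0.09) and Ndufc1 (-0.98 ± 0.11) followed. The 6 genes kept their call and direction in all 13 alternatives, among 29 lower and 2 higher genes that did.

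**Figure D5:**
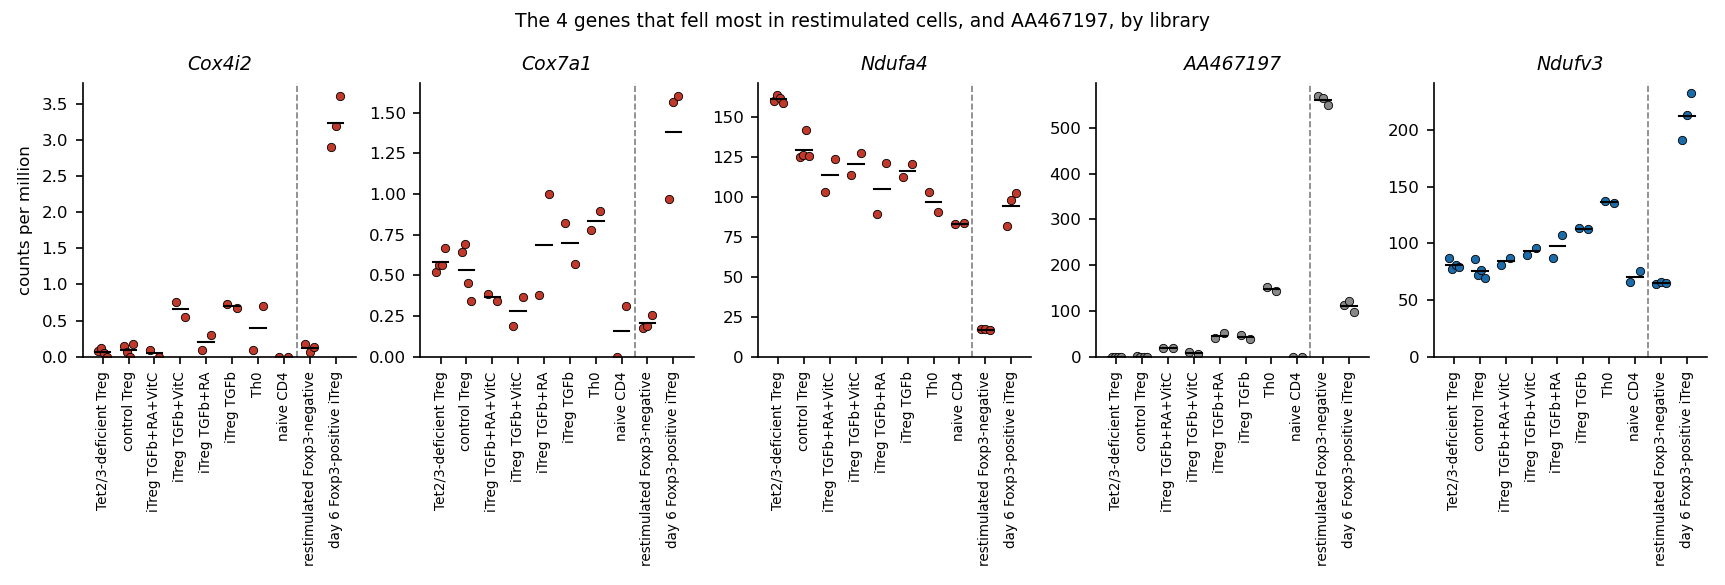
CPM (y axis) of 4 subunit genes and of AA467197 in every library, 1 point a library, with a line at the group mean; groups right of the dashed line come from the separate restimulation table. Ndufa4 lies at 16.5 to 17.1 in the 3 restimulated libraries and at 81.4 or more in all others, while AA467197 lies at 551 to 570 in the restimulated libraries and at most 153 elsewhere.

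The remaining falls were smaller and overlapped with a shift of short genes. Of the 617 other tested genes under 1000 bases, 72.4% were lower and 6.32% higher, with a median of -0.47. Genes under 1000 bases that are not among the 84 took 10.8% to 11% of counts in restimulated and 12.1% to 13.8% in day 6 libraries. All 51 tested subunit genes under 1000 bases were lower (median -0.59), and of 27 longer ones 18 were lower and 2 higher (median -0.29). With the length trend taken out, 29 were lower and 12 higher, and the median was -0.08. In that fit Ndufa4 (-1.96), Ndufv3 (-1.58), Cox4i2 (-4.34) and Cox7a1 (-2.10) were still lower, as were Ndufa1 and Ndufc1 at the smaller values of -0.40 and -0.33, while Cox5a, Cox7c and Atp5h had positive values.

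Around the chain, 11 of 20 tricarboxylic acid cycle genes were lower and 6 higher in restimulated cells, where 35.2% of all genes were lower and 33.6% higher, with Pcx at -3.12 and Ogdh, oxoglutarate dehydrogenase, at 0.40. Of 11 carriers and transporters 8 were lower, led by Cycs (-0.58) and Vdac1 (-0.57), and all 5 genes under other names were lower. Of 19 complex IV assembly factors 7 were lower and 5 higher, with Cox17, a copper chaperone, at -1.54. Of 15 complex I assembly factors 2 were lower and 2 higher. The share of complex IV assembly factors that were lower is close to that over all genes.

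AA467197 is not among the 84 genes and was chosen after its values were seen, because the protein it encodes, known in human as C15orf48 or NMES1, is a relative of Ndufa4 reported to take its place in complex IV. Its level was 570, 566 and 551 CPM in restimulated and 114, 121 and 96.6 CPM in day 6 libraries, opposite in direction to Ndufa4 (2.27 ± 0.07, edgeR, adjusted p = 1.11e-12). It was 153 and 144 CPM in Th0 libraries, while each naive library held 1 count. It was 47.3 and 38.7 CPM in TGFb iTreg libraries, lower than in Th0 (-1.82 ± 0.14, adjusted p = 3.1e-07). With vitamin C it was lower still, at 9.73 and 6.65 CPM in TGFb+VitC against those TGFb libraries (-2.42 ± 0.17, adjusted p = 4.55e-07).

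In the presence of RA the AA467197 level was 18.3 and 19.9 CPM with vitamin C, in TGFb+RA+VitC, and 40.2 and 51.4 CPM in TGFb+RA libraries (-1.27 ± 0.15, adjusted p = 7.79e-05). The vitamin C effect did not pass the test of its difference between these settings (interaction 1.14 ± 0.23, edgeR, adjusted p = 0.143; 0.00786 to 0.578 over 16 alternatives, of which 5 changed the call). Under RA alone the difference did not pass the test (0.08 ± 0.14, adjusted p = 0.765). Ndufa4 itself had 114 and 127 CPM in TGFb+VitC and 112 and 120 CPM in TGFb libraries, which did not pass the test.

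On the FPKM scale, Ndufa4 made up 4.46%, 4.53% and 4.48% of the sum of both genes in restimulated and 52.8%, 55.9% and 62.3% in day 6 libraries. It made up 94.8% and 96.8% in TGFb+VitC and 78.8% and 82.9% in TGFb libraries, 89.8% and 90.6% in TGFb+RA+VitC and 77.7% and 78.6% in TGFb+RA libraries, and 51.4% and 49.5% in Th0 and 99.9% in both naive libraries. It was 99.7% or more in the ex vivo Treg libraries, where AA467197 had 1 to 7 counts and was not tested. Levels of both genes are a description, since AA467197 was picked for its pattern.

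Sister genes were set against each other per length. Atp5g1, Atp5g2 and Atp5g3 encode the same mature subunit c of ATP synthase behind different import sequences. As a share of their summed FPKM, Atp5g2 was 38.1% in Th0 and 49.4% in naive cells, and Atp5g3 46.4% in Th0 and 36.0% in naive cells (means, n = 2 each). Atp5g2 was 44.7% ± 0.55 in Tet2/3-deficient and 47.6% ± 0.71 in control Treg cells, and Atp5g3 was 40.7% ± 0.64 in Tet2/3-deficient and 38.2% ± 0.64 in control cells (SD, n = 4 each). Cox7a2l, whose protein differs from that of Cox7a2, stood relative to Cox7a2 in FPKM at 188% in Th0 and 642% in naive cells. These shares are descriptions of levels per length, and no test was run on them.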

How the data were processed

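Messenger RNA of 26 libraries was prepared with RNeasy Plus and TruSeq stranded mRNA kits, per the labels' protocols. The submitters' processing notes name the mouse build mm9, TopHat2 2.1.1, Trim Galore 0.4.2, edgeR 3.26.6, R 3.6.1, Picard 2.5.0, SAMtools 1.7 and bcl2fastq 2.20.0.442; the counting tool and annotation are not given in the sources used here. The deposited counts are whole numbers per gene, in a first table of 20 libraries and a restimulation table of 6, which were not pooled. The deposited FPKM values equal the count over library total and exon length. A deposited table of RPM values was not used.

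Rows without a symbol (about 0.05% of counts) were left out. Groups came from the labels, those of the ex vivo Treg libraries from column names whose numbers match no single sample. The 84 genes, the other lists and the naming rule (core subunits, sister isoforms and the 6 largest called changes in each direction) were chosen with earlier results of these data known, and the ones described were picked with values in view. Counts were tested in R 4.3.3 with edgeR 4.0.16 (TMM factors, filterByExpr, robust quasi-likelihood tests, 2-sided) and adjusted by Benjamini-Hochberg over all genes of a comparison, at a threshold of 0.05. The 12 naive and cultured libraries shared 1 fit; other comparisons used their own libraries. The SE is the size of the log2 fold change over the square root of F. CPM use raw totals of named genes. Alternatives were RLE factors, library totals alone, DESeq2 1.42.0, no count filter, all libraries of the first table in 1 fit, a replicate block, leaving out each library, and an offset from a smooth curve (loess, span 0.3) of log2 CPM on exon length. The scripts were tested on simulated counts. Replicate libraries were no copies of each other (chi-square per degree of freedom 2.289 to 23.6 over 24 pairs). Depth was 9643151 to 17665855 counts, which limits genes with few counts. Figures were drawn with matplotlib 3.10.9.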

Additional observations from a re-analysis of the deposited data

Results flagged for a closer look

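A part of the subunit genes, not every gene named in the report, was examined for a library far from the others of its group. This was done in the ex vivo Treg groups of 4. In 8 of 82 such groups 1 library lay apart from the other 3, where chance gives about 1 in 20. In Tet2/3-deficient Treg cells, library S5 had 259 CPM of Uqcrc1, a core protein of complex III, while the other 3 had 285 to 286, and 163 CPM of Cox8a, while the others had 185 to 186. The same library had 606 CPM of Cox7a2l, above 530 to 541 in the others. Library S8 had 370.2 CPM of Atp5c1, the central stalk subunit of ATP synthase, below 378 to 379.

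In control Treg cells, library S3 had 97.5 CPM of Cox7a2 (81.8 to 84.4 in the others), 119 CPM of Cox7b (112 to 113) and 141.5 CPM of Ndufa4 (125 to 126). Library S1 had 117 CPM of Ndufa10, above 92.2 to 95.1. Of these genes Atp5c1, Cox7a2, Cox7b, Ndufa4 and Ndufa10 were called higher in Tet2/3-deficient cells.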

How the results depend on the processing

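Among calls of subunit genes, 39 in Tet2/3-deficient against control Treg became 18 under the exon length offset and ranged from 24 to 46 with 1 library left out. For TGFb+VitC against TGFb, 11 became 6 with library totals alone, 17 with no count filter, 7 with the length offset and 0 to 3 with 1 library left out. For TGFb+RA against TGFb, 3 became 5 with the length offset and 0 to 17 with 1 library left out. For TGFb+RA+VitC against TGFb+RA, 0 became 1 with the length offset and 0 to 8 with 1 library left out; against TGFb+VitC, 1 became 3 with no filter, 3 with the length offset, 2 with all 20 libraries fitted and 0 to 1 with 1 left out. For TGFb against Th0, 19 became 10 with library totals alone, 5 with the length offset and 0 to 13 with 1 left out. Control Treg against naive ranged from 23 to 52 with 1 left out, and Th0 against naive from 66 to 70. Restimulation gave 41 calls with the length offset, against 71. Beyond the length trend that the offset removes and the fewer samples left, the cause was not tested. With 1 library left out of 2, the lone library is assumed to vary like the other groups.

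Under the length offset, values changed sign for some genes. In TGFb against Th0 this was Uqcrb (0.24). In Th0 against naive these were Cox4i1 (-0.11), Ndufa2 (-0.024), Ndufa4 (-0.29), Sdhc (-0.13), Uqcrh (-0.42), Atp5g2 (-0.20) and Ndufb10 (-0.029). In restimulated cells these were Cox6b1 (0.045), Atp5g1 (0.044), Atp5k (0.014), Cox4i1 (0.11), Cox5a (0.20), Cox7c (0.11), Cox8a (0.020), Cox7a2l (0.25), Ndufb6 (0.022), Atp5l (0.093), Ndufs5 (0.044), Sdhc (0.23), Ndufa9 (0.17), Uqcrh (0.036), Uqcrfs1 (0.032), Sdhd (0.081), Atp5e (0.21), Atp5g2 (0.072), Ndufb4 (0.20), Ndufb10 (0.19), Atp5h (0.20) and Ndufs7 (0.070).

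Replicate numbers of the cultures and the restimulation table did not meet the test for pairing (correlations of same-numbered libraries 0.0108 to 0.417 with 2 pairs, and 0.0759, 0.0944 and 0.198 with 3). In the cultures, with 2 libraries a group, differently numbered libraries give the same values with a negative sign. That check therefore cannot decide whether the cultures were paired. With the replicate block, TGFb+VitC against TGFb gave 26 calls, TGFb+RA+VitC against TGFb+RA 1, against TGFb+VitC 3, and TGFb against Th0 36. With the replicate block and the length offset, TGFb+RA against TGFb gave 9, TGFb+RA+VitC against TGFb+RA 3, against TGFb+VitC 9, TGFb against Th0 10 and restimulation 43. That fit changed sign for the same genes as the offset alone: Uqcrb (0.24) in TGFb against Th0; Cox4i1 (-0.11), Ndufa2 (-0.024), Ndufa4 (-0.29), Sdhc (-0.13), Uqcrh (-0.42), Atp5g2 (-0.20) and Ndufb10 (-0.029) in Th0 against naive; and in restimulated cells Cox6b1 (0.046), Atp5g1 (0.044), Atp5k (0.011), Cox4i1 (0.11), Cox5a (0.19), Cox7c (0.12), Cox8a (0.022), Cox7a2l (0.25), Ndufb6 (0.022), Atp5l (0.093), Ndufs5 (0.044), Sdhc (0.23), Ndufa9 (0.17), Uqcrh (0.036), Uqcrfs1 (0.031), Sdhd (0.081), Atp5e (0.21), Atp5g2 (0.072), Ndufb4 (0.20), Ndufb10 (0.19), Atp5h (0.20) and Ndufs7 (0.069). No paired analysis was possible because the ex vivo columns carry no replicate number of the labels, for Tet2/3-deficient against control Treg and control Treg against naive.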
